A study of Mus musculus with 4 samples.

Results

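The genes described here are 10 enzymes that remove superoxide and peroxides, taken by name from the 32285 genes listed: the peroxiredoxins Prdx1, Prdx2, Prdx3, Prdx5 and Prdx6, the glutathione peroxidases Gpx1 and Gpx4, the superoxide dismutases Sod1 and Sod2, and catalase (Cat). They were measured by single-cell RNA sequencing (scRNA-seq) in myeloid-derived suppressor cells (MDSCs), which are immature myeloid cells that restrain T cells. The study asked how isoproterenol (ISO), an agonist of β-adrenergic receptors, alters the metabolism and survival of these cells. Bone marrow of wildtype (WT) C57BL/6 mice, 6 to 10 weeks old, was cultured for 4 days with 40 ng/ml IL-6 and 40 ng/ml GM-CSF, without ISO (WT+PBS) or with 10 µM ISO (WT+ISO), and live CD11b+ cells were sorted. The methods list C57BL/6J mice, the reporting summary adds C57BL/6NJ, and which of them gave these libraries is not stated. Both groups share the cytokines, the culture time and the sort, and each is 1 library from an unstated number of mice. A library here is the set of cells deposited for 1 sample. The paper's methods describe cells that were labelled with feature barcodes, sorted, pooled and then captured, and the number of captures is not stated.

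Dismutases turn superoxide into hydrogen peroxide, with Sod1 (copper and zinc) mainly in the cytosol and Sod2 (manganese) in mitochondria. Catalase in peroxisomes then breaks hydrogen peroxide down to water and oxygen. The selenium-containing glutathione peroxidases and the thiol-based peroxiredoxins reduce hydrogen peroxide and organic peroxides, at the expense of glutathione or thioredoxin and ultimately of NADPH. Neutrophils and their precursors make superoxide with an NADPH oxidase, so the same cells carry a source and a set of removers of these oxidants.

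The WT+PBS library held 2210 cells and 24393687 UMIs (unique molecular identifiers, 1 per captured RNA molecule), and the WT+ISO library 2264 cells and 29400468 UMIs. The median cell had 8088.5 UMIs with PBS and 10252 with ISO. Itgam, which encodes the sorted CD11b, was at 336 and 290 CPM (UMIs per 1000000 UMIs) in these libraries. The main multiplexing tag was CMO301 in the WT+PBS cells (95.4% of tag counts) and CMO302 in the WT+ISO cells (97.1%). In each of them 0 cells had another tag on top. No cell barcode was shared between the 4 libraries of the series, which were clustered together and of which the other 2 are of another genotype. With 1 library per group there was no replicate check and no test of treatment, and the 95% intervals below cover counting error only.

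The glutathione peroxidases Gpx1 and Gpx4 carry selenocysteine, which the ribosome inserts at a TGA that would otherwise end the protein. This codon is shown because it is the feature that sets Gpx1 and Gpx4 apart from the other 8 enzymes, with TGA in capitals and the coding strand read from the GENCODE mouse transcripts. The codon was number 47 of 201 in Gpx1 and number 73 of 197 in Gpx4.
Gpx1: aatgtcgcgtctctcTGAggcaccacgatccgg
Gpx4: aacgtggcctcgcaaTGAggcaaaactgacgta

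Promoters, taken as 250 bases before to 50 after the RefSeq start (GRCm38.p6), were found for 9 of the 10 genes, Prdx6 being the one without an entry. The core of the antioxidant response element, TGACNNNGC on either strand, stood in the promoters of Prdx1 and Sod1, 2 of 9 genes, against 3781 of 27025 mouse genes and 12.4% of 32851 promoters. The cyclic AMP response element, TGACGTCA, stood in 0 of 9 and in 1.79% of all promoters. Prdx1 and Cat are printed because they had the largest ISO ratios once the cluster shares were held fixed, and Sod1 because it matched the same pattern, with other letters at its free positions, and had a ratio near 0. Capitals mark the match, which began 133 bases before the start in Prdx1 and 56 bases before it in Sod1.
Prdx1 (chr4:116685349-116685648, plus strand): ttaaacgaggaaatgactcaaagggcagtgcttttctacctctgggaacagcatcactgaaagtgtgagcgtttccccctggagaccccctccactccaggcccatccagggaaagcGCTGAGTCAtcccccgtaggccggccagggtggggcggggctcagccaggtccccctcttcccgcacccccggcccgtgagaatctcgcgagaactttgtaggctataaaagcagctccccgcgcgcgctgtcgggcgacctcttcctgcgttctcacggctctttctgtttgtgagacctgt
Sod1 (chr16:90220512-90220811, plus strand): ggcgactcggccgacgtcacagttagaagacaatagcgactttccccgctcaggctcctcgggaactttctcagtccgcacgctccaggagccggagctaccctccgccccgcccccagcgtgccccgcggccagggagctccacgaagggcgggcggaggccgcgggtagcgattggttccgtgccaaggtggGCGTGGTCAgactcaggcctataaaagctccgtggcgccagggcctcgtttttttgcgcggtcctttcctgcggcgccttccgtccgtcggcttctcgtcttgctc
Cat (chr2:103485104-103485403, minus strand): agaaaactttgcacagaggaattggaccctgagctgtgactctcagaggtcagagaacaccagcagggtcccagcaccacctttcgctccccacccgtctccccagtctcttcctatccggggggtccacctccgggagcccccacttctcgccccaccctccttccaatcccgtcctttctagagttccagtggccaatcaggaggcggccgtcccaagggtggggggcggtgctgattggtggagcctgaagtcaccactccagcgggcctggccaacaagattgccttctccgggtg

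Across all cells, Prdx6 and Cat were the enzymes more abundant with ISO by over 0.32 on the log2 scale, and none was less abundant by that much. Levels are CPM of the library, and a ratio is the log2 of the WT+ISO level over the WT+PBS level. Among 11852 genes with at least 50 UMIs in the 2 libraries together, 6.90% were higher past 0.32 and 14.8% were lower past it. Of the 10 enzymes 8 had a ratio above 0, with a median of 0.10 against -0.02 for all genes. Between 40.9% and 52.3% of all genes were above 0, the shares above the ratios of Prdx2 (0.03) and Sod1 (-0.03).

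Among the peroxiredoxins, the 1-cysteine enzyme Prdx6 (chr1:161240112-161251210), which also has phospholipase activity, was at 336 CPM with PBS and 434 CPM with ISO. This 1.29-fold difference was a log2 ratio of 0.37 (95% interval 0.33 to 0.41), and 5.26% of all genes had a higher one. Prdx3 (chr19:60864066-60874538), the mitochondrial peroxiredoxin, was at 53.1 and 63.1 CPM, a log2 ratio of 0.25 (0.15 to 0.35). It stayed short of 0.32, although its interval reached past it.

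The 3 other peroxiredoxins had smaller ratios. Prdx1 (chr4:116685599-116700000), a cytosolic thioredoxin-dependent enzyme, was at 644 and 685 CPM, a log2 ratio of 0.09 (0.06 to 0.12). Its close relative Prdx2 (chr8:84969622-84974811) was at 168 and 171 CPM, and the interval of its ratio of 0.03 ran from -0.03 to 0.09. Prdx5 (chr19:6906697-6910106), found in mitochondria, peroxisomes and cytosol, was at 1443 and 1551 CPM, a ratio of 0.10 (0.08 to 0.12).

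Gpx1 was the one enzyme with an interval wholly below 0. Gpx1 (chr9:108339080-108340342), which reduces soluble peroxides, was at 1062 CPM with PBS and 986 CPM with ISO, a log2 ratio of -0.11 (-0.13 to -0.08). Gpx4 (chr10:80047166-80056439), which reduces lipid peroxides in membranes and restrains ferroptosis, was at 689 and 752 CPM, a ratio of 0.13 (0.10 to 0.16). The 2 selenoenzymes thus stood on opposite sides of 0, both within 0.32 of it.

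Neither dismutase passed 0.32. Sod1 (chr16:90220762-90226333) was at 29.4 CPM with PBS and 28.8 CPM with ISO, from 717 and 846 UMIs, and the interval of its log2 ratio of -0.03 ran from -0.18 to 0.11. Sod2 (chr17:13007839-13018119) was at 226 and 240 CPM, a ratio of 0.09 (0.04 to 0.14). Cat (chr2:103453904-103485153) was at 35.7 and 47.6 CPM, from 872 and 1399 UMIs. Its log2 ratio of 0.41 (0.29 to 0.54), a 1.33-fold difference, was exceeded by 4.18% of all genes.

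**Figure D1:**
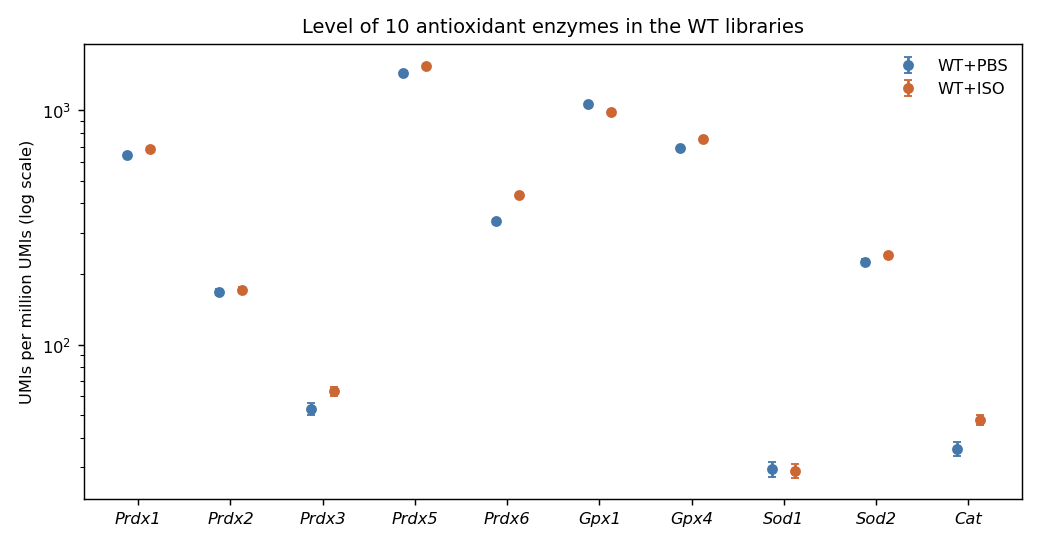
Level of each enzyme in WT+PBS (blue) and WT+ISO (orange), in CPM on a log axis, 1 library per group, with 95% Poisson intervals where they exceed the point. Prdx6 (336 and 434) and Cat (35.7 and 47.6) show the widest gaps, and the points of Prdx2 and Sod1 lie closest together.

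Per cell, each enzyme had more UMIs with ISO, as did the library as a whole. Prdx6 had 3.70 UMIs per cell with PBS and 5.63 with ISO, Prdx5 15.9 and 20.1, and Cat 0.39 and 0.62. Even Gpx1, lower in CPM, was at 11.7 and 12.8 UMIs per cell. The median UMIs per cell differed in the same direction. The mix of clusters described below, which differ in RNA content, was not the same in the WT libraries either. The part of each in these per-cell values was not tested.

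The cells fell into 7 clusters on variable genes, with the 10 enzymes and the related redox genes left out of the clustering. Azurophil-granule neutrophil progenitor-like cells were led by Mpo and Elane, specific-granule neutrophil-like cells by Ltf and Camp, and mature neutrophil-like cells by Retnlg and Mmp9. Macrophage-like cells were led by C1qb and Mrc1, and a dendritic-like cluster of 77 cells by Ccr7 and Fscn1. In the macrophage-like cluster 6 of 8 macrophage markers were detected, at a mean log2 ratio to all other cells of 4.08. Dendritic markers were nearly as high there (5 of 11, 3.60), and any change in this mix with ISO was not tested. The mature neutrophil-like cluster had 8 of 8 mature neutrophil markers detected, at a mean of 2.58. It also had 7 of 7 specific-granule markers, at 1.83 against 2.12 in the specific-granule cluster. Clusters led by Csta3 and Matn2, and by Gpnmb and Acod1, stayed unnamed. Cells of the Csta3 cluster were rich in RNA, with a median of 18191 UMIs, and those of the Gpnmb cluster poor, with 3185. The dendritic-like cluster held 25 WT+PBS and 12 WT+ISO cells and was left out of the comparisons by cluster, which therefore cover the 6 larger clusters.

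The cluster shares differed between the WT libraries. Azurophil-granule progenitor-like cells made up 16.0% of cells with PBS and 24.4% with ISO, and mature neutrophil-like cells 15.7% and 22.7%. Gpnmb-led cells made up 27.0% and 15.8%, and macrophage-like cells 8.05% and 3.93%. Specific-granule cells (11.9% and 12.4%) and Csta3-led cells (20.2% in both) held similar shares.

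Markers of other cells also differed between WT+PBS and WT+ISO. The 8 macrophage markers, all detected, summed to 299 CPM with PBS and 181 with ISO. Of 11 dendritic markers 10 were detected in each library, Xcr1 being at 0 with PBS and Siglech with ISO, and their sum was 1037 and 353 CPM. The 4 eosinophil markers summed to 56.4 and 3.03 CPM, with Prg3 at 0 with ISO, and their part in the enzymes' ratios was not tested. Red cells, which are rich in Prdx2 and catalase, left little trace: 2 of 8 erythroid markers were detected in each library, summing to 10.8 and 11.8 CPM, and Hba-a1, Hba-a2 and Hbb-bs were at 0 in both.

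Levels by cluster are given as ranges over all 4 libraries of the series, which differ in treatment and in genotype (2 of them are WT) and are not replicates, and folds between clusters are of their means. A cluster was said to stand apart where its lowest library lay above the highest library of the next cluster. This was so for 3 of the 10 enzymes, Prdx2, Prdx3 and Prdx5, against 26.8% of the 9238 genes compared, a share near the background.

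Prdx1 was the most uneven enzyme of the 10. It ranged from 1185 to 2996 CPM in macrophage-like cells, from 1070 to 1718 in the Gpnmb cluster and from 736 to 876 in the Csta3 cluster. The neutrophil-like clusters were far lower, at 176 to 262 CPM in azurophil-granule cells, 173 to 281 in mature cells and 85.5 to 158 in specific-granule cells. The mean was 15.3 times higher in macrophage-like than in specific-granule cells, and 92.5% of genes had a smaller fold between their highest and lowest cluster. The 2 highest clusters overlapped, macrophage-like cells being above the Gpnmb cluster in 3 of 4 libraries, as did the azurophil-granule and mature clusters.

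Prdx2 was also highest in macrophage-like cells (274 to 386 CPM), then in the Csta3 cluster (217 to 243), and these ranges did not overlap. It was lowest in mature neutrophil-like cells (42.7 to 64.5), a 6.21-fold difference of means. Prdx3 instead peaked in the Csta3 cluster (76.7 to 99.7 CPM), ahead of azurophil-granule cells (49.4 to 58.4) and macrophage-like cells (39.9 to 46.0), with no overlap between these neighbours. Mature and specific-granule neutrophil-like cells had the least, with overlapping ranges from 11.9 to 29.2.

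Prdx5 ran the other way. It was highest in mature neutrophil-like cells (2601 to 2701 CPM), followed by specific-granule cells (2252 to 2439) and the Gpnmb cluster (2071 to 2326), and lowest in the Csta3 cluster (902 to 1162). Only the first of these steps was free of overlap among the 3 highest clusters. Prdx6 was spread far more evenly, 1.80-fold between azurophil-granule cells (419 to 498 CPM) and mature neutrophil-like cells (204 to 289), and each of its neighbouring clusters overlapped.

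Gpx4 was the most even of the 10, with a 1.35-fold difference between the Gpnmb cluster (751 to 901 CPM) and mature neutrophil-like cells (540 to 668), and 2.14% of genes had a smaller fold. Gpx1 differed 2.14-fold, between macrophage-like cells (1144 to 1411 CPM) and specific-granule cells (571 to 684). Its 4 highest clusters overlapped from one to the next, while mature and specific-granule cells lay below them without overlap.

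Sod1 and Sod2 had different orders. Sod1 was highest in macrophage-like cells (44.5 to 51.0 CPM) and the Csta3 cluster (35.7 to 44.5), which met at their edge, and lowest in specific-granule (8.41 to 12.4) and mature neutrophil-like cells (7.59 to 14.4). Sod2 was highest in the Gpnmb cluster (356 to 490 CPM) and macrophage-like cells (241 to 392), and lowest in azurophil-granule (93.9 to 122) and specific-granule cells (79.6 to 134). Mature neutrophil-like cells, low in Sod1, held an intermediate level of Sod2 (209 to 271).

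Cat ranged from 55.2 to 100.1 CPM in macrophage-like cells and from 50.1 to 71.4 in the Gpnmb cluster, down to 24.3 to 36.2 in azurophil-granule cells, a 2.73-fold difference of means. All neighbours in its order overlapped, though macrophage-like cells were above the Gpnmb cluster in 4 of 4 libraries when each was compared within itself.

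The order by UMIs per cell was another, since the clusters differ in RNA content. Prdx5, highest in CPM in mature neutrophil-like cells, reached 28.0 UMIs per cell in azurophil-granule cells against 13.6 in mature ones. Gpx4, highest in CPM in the Gpnmb cluster, had 3.36 UMIs per cell there and 13.8 in both azurophil-granule and Csta3-led cells.

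**Figure D2:**
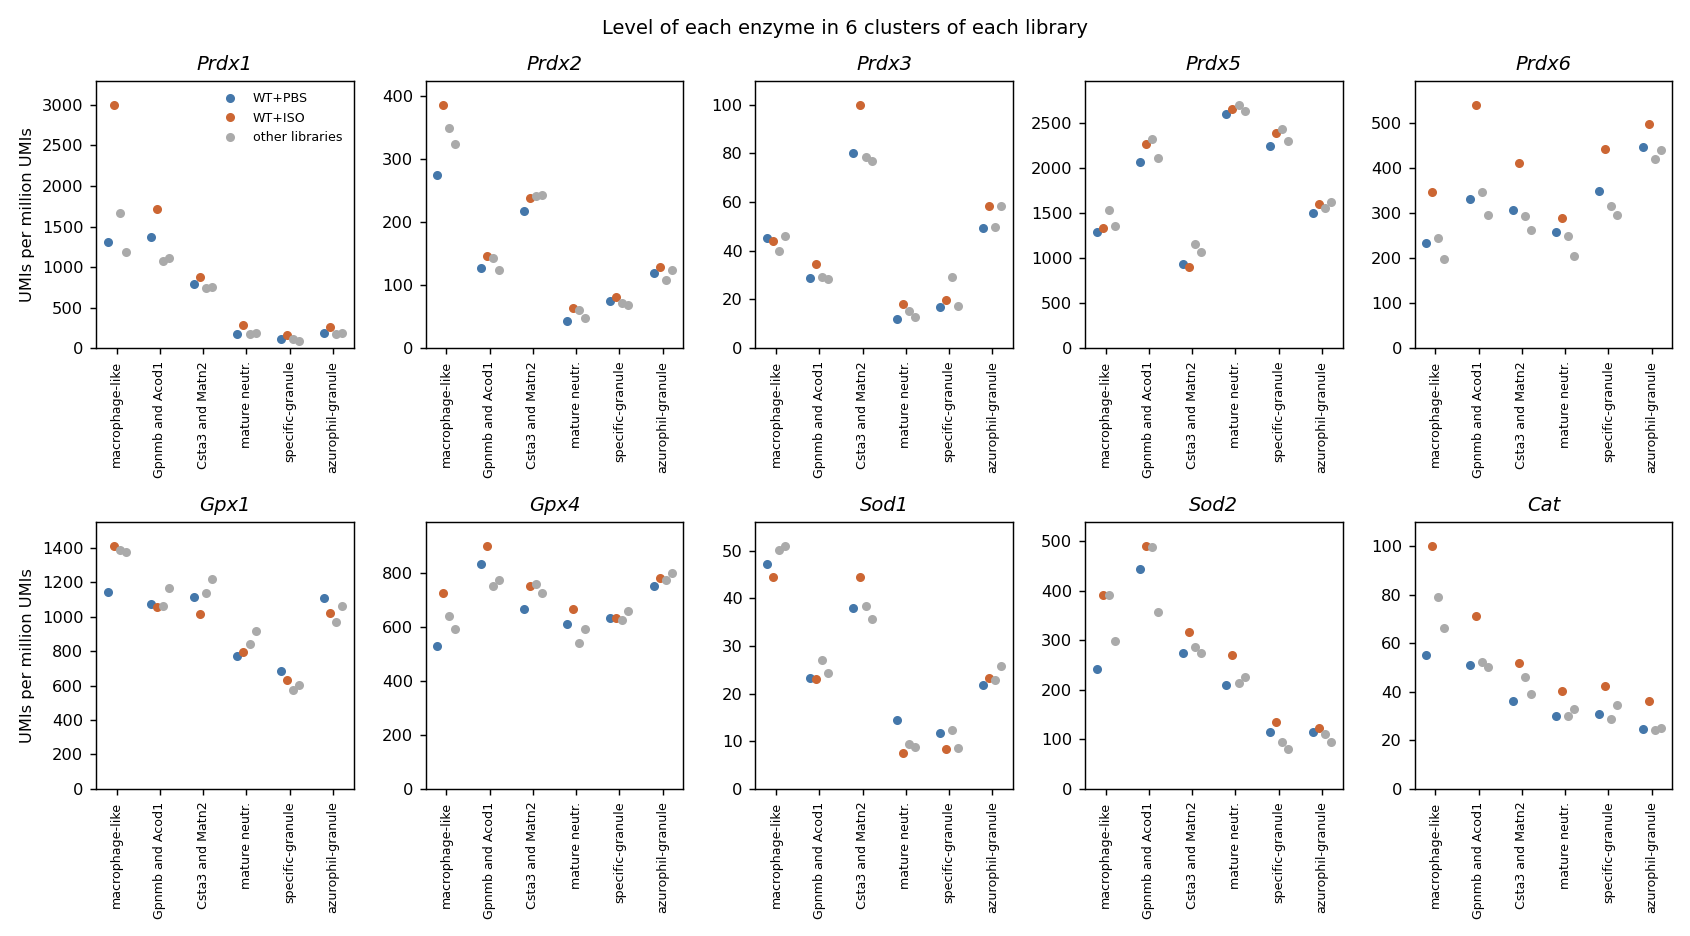
Level of each enzyme in 6 clusters (x axis), in CPM of the cluster (y axis, from 0), 1 point per library: WT+PBS blue, WT+ISO orange, the other 2 libraries grey. Prdx1 is 15.3 times higher in macrophage-like than in specific-granule cells while Gpx4 differs 1.35-fold, and the orange point is the highest of 4 in all 6 clusters for Prdx1, Prdx6 and Cat.

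Within clusters, 5 of the 10 enzymes, Prdx1, Prdx2, Prdx6, Sod2 and Cat, were higher with ISO in all 6 clusters, against 6.22% of genes. None was lower in all 6, against 4.64% of genes. WT+ISO was also the highest of the 4 libraries in all 6 clusters for 3 of 10, Prdx1, Prdx6 and Cat, against 2.21% of genes, a count made after these values were seen. The shares are over 9238 genes with at least 500 UMIs in all. Abundant genes keep one direction at smaller ratios because their counting error is smaller, and genes of like abundance were not compared. The 6 ratios of an enzyme come from the same 2 libraries and are not replicates. Median UMIs per cell were higher with ISO in 5 of the 6 clusters, the exception being azurophil-granule cells at 17249 with PBS and 17158.5 with ISO, and the part of depth was not tested.

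Prdx1 had the highest ratio of the 10 enzymes in any of the 6 clusters. In macrophage-like cells it was at 1313 CPM with PBS and 2996 CPM with ISO (3469 and 4309 UMIs), a log2 ratio of 1.19 (1.13 to 1.26). It was at 175 and 281 CPM in mature neutrophil-like cells (0.68, 0.49 to 0.88), at 189 and 262 in azurophil-granule cells (0.47, 0.37 to 0.57), and at 116 and 158 in specific-granule cells (0.45, 0.20 to 0.70). The Gpnmb cluster, at 1366 and 1718 CPM, had a ratio of 0.33 (0.26 to 0.40), and the Csta3 cluster, at 790 and 876 CPM, one of 0.15 (0.10 to 0.19). All 6 intervals lay above 0, while the ratio over all cells was 0.09.

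The macrophage-like and Gpnmb clusters, highest in Prdx1, held fewer cells with ISO. Macrophage-like cells gave 22.1% of Prdx1 UMIs with PBS and 21.4% with ISO, although their share of cells was 8.05% and then 3.93%. The Gpnmb cluster gave 20.9% and 14.1%, and azurophil-granule cells, low in Prdx1 CPM, 7.92% and 13.8%. The Csta3 cluster, next in Prdx1 level, held 20.2% of cells in both libraries and gave 45.0% of Prdx1 UMIs with PBS and 44.2% with ISO. With each of the 7 clusters given the same weight in both libraries (its share of all cells of the series), the Prdx1 log2 ratio was 0.53, exceeded by 3.32% of genes. The macrophage-like cluster had a weight of 9.88%, above its share in either WT library, since the other 2 libraries count in the weights.

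Cat ratios ran from 0.43 to 0.86. It was at 55.2 CPM with PBS and 100.1 CPM with ISO in macrophage-like cells, a log2 ratio of 0.86 (0.52 to 1.20), at 24.6 and 36.2 in azurophil-granule cells (0.55, 0.29 to 0.83), and at 36.2 and 51.9 in the Csta3 cluster (0.52, 0.32 to 0.73). The Gpnmb cluster was at 51.2 and 71.4 CPM (0.48, 0.11 to 0.86). In specific-granule (0.47) and mature neutrophil-like cells (0.43) the intervals reached below 0, with 58 and 96 UMIs in the first and 48 and 128 in the second.

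Prdx6 had its largest ratio in the Gpnmb cluster, at 331 CPM with PBS and 539 CPM with ISO (0.70, 0.56 to 0.84). Macrophage-like cells were at 233 and 346 CPM (0.57, 0.40 to 0.74), the Csta3 cluster at 305 and 411 (0.43, 0.36 to 0.50), and specific-granule cells at 349 and 442 (0.34, 0.20 to 0.49). Ratios were smaller in azurophil-granule cells, at 447 and 498 CPM (0.16, 0.09 to 0.22), and in mature neutrophil-like cells, at 259 and 289 CPM (0.16, -0.01 to 0.33). Azurophil-granule cells, where Prdx6 was highest with PBS, were thus among the clusters with the smallest ratios.

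Sod2 ratios ran from 0.08 in azurophil-granule cells to 0.70 in macrophage-like cells, where it was at 241 CPM with PBS and 391 with ISO, and 4 of 6 intervals lay above 0. Prdx2 ran from 0.10 to 0.60, with 3 of 6 above 0. Gpx4 ran from 0.00 in specific-granule cells to 0.46 in macrophage-like cells (529 and 726 CPM), with 5 of 6 above 0. Prdx3 had 2 of 6 above 0, the clearest in the Csta3 cluster at 80.3 and 99.7 CPM (0.31, 0.17 to 0.45).

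Gpx1, Sod1 and Prdx5 differed in direction between clusters. Gpx1 was at 1144 CPM with PBS and 1411 CPM with ISO in macrophage-like cells (0.30, 0.22 to 0.38), and lower with ISO in the Csta3 (-0.14), azurophil-granule (-0.12) and specific-granule (-0.12) clusters, each with an interval below 0. Sod1 was at 37.9 and 44.5 CPM in the Csta3 cluster (0.23, 0.02 to 0.44) and at 14.4 and 7.59 CPM in mature neutrophil-like cells (-0.93, -1.82 to -0.04), the latter from 23 and 24 UMIs. Prdx5 stayed between -0.04 and 0.13 in all 6 clusters, and its interval in the Csta3 cluster, the only one with a ratio below 0, ended at -0.002.

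**Figure D3:**
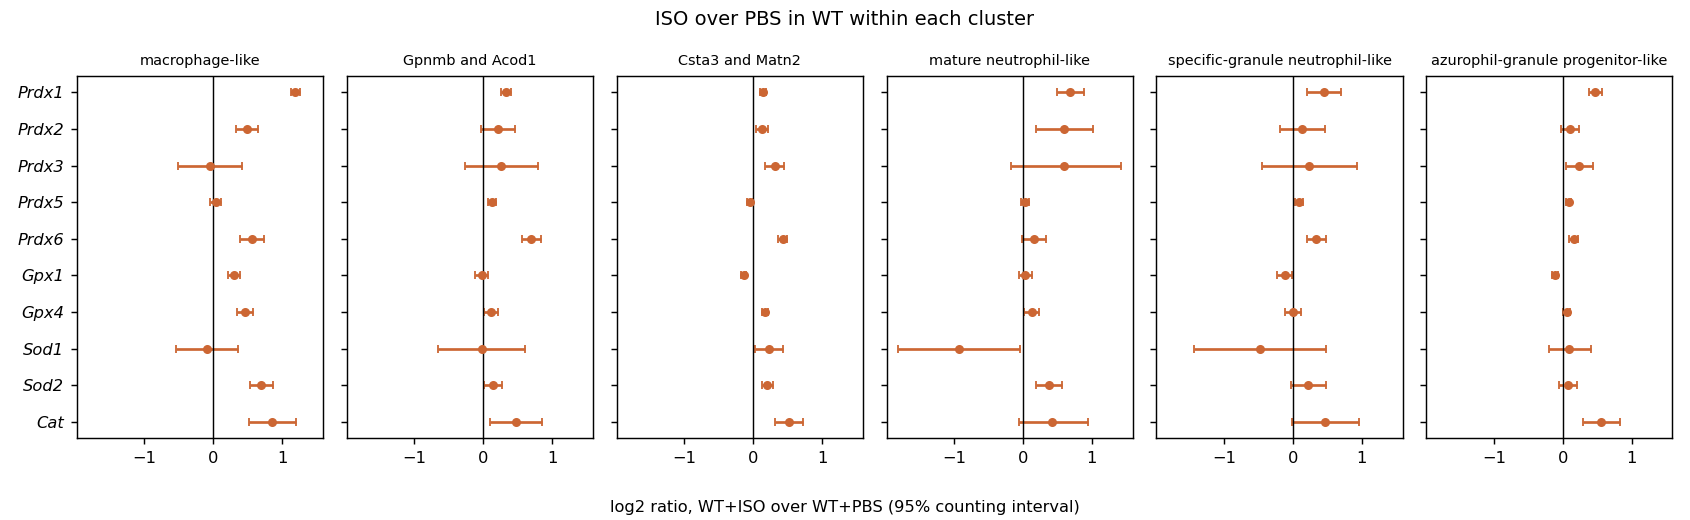
The log2 ratio of WT+ISO over WT+PBS for each enzyme (rows) within 6 clusters (panels), with 95% counting intervals and a line at 0, from 1 library per group. Prdx1, Prdx2, Prdx6, Sod2 and Cat lie above 0 in every panel, and Prdx1 reaches 1.19 in macrophage-like cells.

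With clusters at fixed weights, 3 of the 10 enzymes were higher past 0.32, Prdx1 (0.53), Prdx6 (0.40) and Cat (0.54), and none was lower. The same weights put 8.72% of all genes higher and 10.3% lower. Sod2 (0.26), Prdx2 (0.25) and Prdx3 (0.27) fell short, Gpx4 (0.13) and Prdx5 (0.06) were lower still, and Gpx1 (-0.03) and Sod1 (-0.03) were next to 0. Prdx1, Prdx2, Sod2 and Cat were thus further from 0 than in the sum over all cells, and Gpx1 and Prdx5 nearer to it. The Prdx1 call depended on the macrophage-like and dendritic-like clusters. Without them, a setting chosen after seeing the data, Prdx1 was at 0.316, just short of the threshold (0.322 to 3 digits). Prdx6 (0.38) and Cat (0.49) stayed past it.

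**Figure D4:**
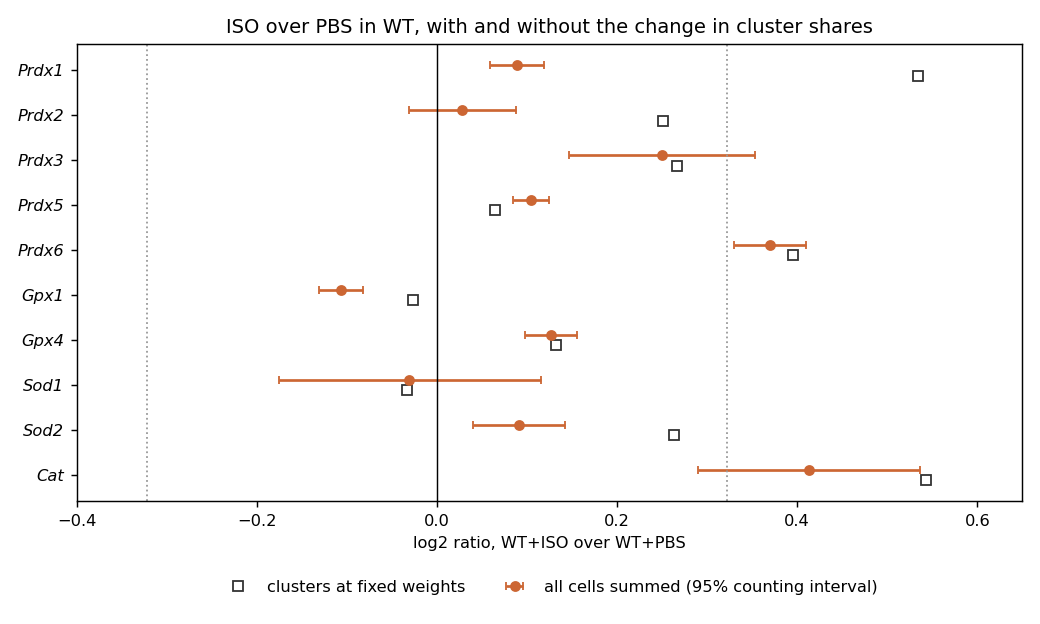
The log2 ratio of WT+ISO over WT+PBS for each enzyme, over all cells summed (filled points, 95% counting intervals) and with all 7 clusters at fixed weights (open squares, no interval), with dotted lines at 0.32 on either side of 0. Prdx1 moves from 0.09 to 0.53 between the 2 measures, while Prdx6 (0.37 and 0.40) and Gpx4 (0.13 and 0.13) hardly move.

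The partners that keep these enzymes working were read from fixed lists. Of the other family enzymes 2 of 7 had enough UMIs: Prdx4, the peroxiredoxin of the endoplasmic reticulum, was at 26.4 CPM with PBS and 16.5 CPM with ISO (-0.67, -0.85 to -0.50), and Gpx3, the secreted glutathione peroxidase, was at 16.9 and 17.7 CPM (0.07, -0.12 to 0.26). Prdx6b, Gpx2, Gpx7, Gpx8 and Sod3 were under 50 UMIs. Across all the lists that follow, a gene is counted as higher or lower where its ratio over all cells passed 0.32, as 6.90% and 14.8% of genes did.

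In the glutathione system 5 of 21 genes were higher and 2 lower, with a median ratio of 0.13. Gclm, the modifier subunit of the enzyme that starts glutathione synthesis, was at 187 CPM with PBS and 366 CPM with ISO (0.97, 0.92 to 1.02). Gstm5, a glutathione transferase, was at 2.83 and 5.14 CPM from 69 and 151 UMIs (0.86, 0.44 to 1.29). The other 3 were Gclc, the catalytic partner of Gclm (0.33), and the transferases Gstm1 (0.41) and Mgst2 (0.51), while Chac1, which degrades glutathione (-0.40), and Mgst3 (-0.51) were lower.

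In the thioredoxin system 1 of 17 was higher and 3 were lower, with a median of 0.04. The higher one was Srxn1, sulfiredoxin, which repairs over-oxidised peroxiredoxins, at 13.2 and 18.9 CPM (0.52, 0.32 to 0.72). Lower were Sesn2, a stress-induced sestrin, with 439 and 319 UMIs (-0.73, -0.94 to -0.52), its relative Sesn3 (-0.35, -0.84 to 0.14) and Txndc5 (-0.41, -0.60 to -0.22). Txn1, thioredoxin itself, had a ratio of 0.13 and Txnrd1, its reductase, one of 0.24.

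Among genes that supply NADPH 2 of 12 measured were higher and 0 lower, with a median of 0.16. Me1, cytosolic malic enzyme, was at 0.70 CPM with PBS and 2.31 CPM with ISO from 17 and 68 UMIs (1.73, 0.95 to 2.59). The other was G6pdx, the entry enzyme of the pentose phosphate pathway, at 89.8 and 121 CPM (0.43, 0.35 to 0.51). In selenoprotein synthesis 1 of 16 was higher and 1 lower (median 0.03), the kinase Pstk (0.34) and the small selenoprotein Selenow (-0.43). Among metal and peroxisome partners 0 of 14 were higher and 2 lower (median 0.00). These were Slc39a14, a zinc and manganese importer, at 16.3 and 10.3 CPM (-0.65, -0.87 to -0.44), and the copper chaperone Atox1 at 511 and 407 CPM (-0.33). Ccs, the copper chaperone for superoxide dismutase, was at 18.9 CPM with PBS and 19.0 CPM with ISO (0.01, -0.17 to 0.20). List genes within 1.5-fold were named after their values were seen.

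The genes most like each enzyme were read over 26 sums of cells, 1 per cluster and library, as a description, since the sums share libraries and depth. Prdx1 ran with Smpdl3b (Pearson r = 0.97) and Mga (0.96), Prdx2 with Ifi30 and Clta (both 0.97), and Prdx3 with the chaperone Hsp90ab1 (0.96) and the nucleolar Npm1 (0.95). Prdx5 ran with Pilrb2 (0.98) and Alox5 (0.96), the leukotriene-forming lipoxygenase, and Prdx6 with Neu1 and Ttc32 (both 0.92). For Gpx1 they were Tubb6 (0.93) and Acot7 (0.92), and for Gpx4 Strbp (0.84) and Arfrp1 (0.83). Sod1 ran with 0610012G03Rik and Nubpl (both 0.95), Sod2 with Esd and Asah1 (both 0.95), and Cat with Cyb5a (0.93) and Mpeg1 (0.89). Between the enzymes themselves, Prdx2 and Prdx5 stood furthest apart, with r = -0.77.

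Some counts may be shared with neighbours or copies. No other gene overlapped the 10 on the same strand in the GENCODE annotation, but each of them except Prdx3 overlapped at least 1 on the opposite strand. Among these, Prdx2 overlapped Junb and Rnaseh2a, Prdx5 Trmt112 and Sod1 Scaf4. Junb had 6205 UMIs with PBS and 5314 with ISO, more than the 4095 and 5033 of Prdx2. Pseudogenes bear the names of Prdx1, Prdx2, Prdx6 and Gpx4, and how reads were divided between them is uncertain.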

How the data were processed

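MDSCs were profiled by 10x scRNA-seq in 4 libraries, 1 per group. The authors deposited raw UMI counts per gene and cell, without normalization, for barcodes called as cells. The submitters' processing notes name Cell Ranger 6.0.0, Seurat and mm10, while the file header gives Cell Ranger 7.0.0. Whether intronic or antisense reads were counted is not given in the sources used here. Groups follow the sample titles and the paper, since the labels' treatment field names isoproterenol for every sample. Comparisons with the other 2 libraries are not reported here. The members and lists were chosen with earlier results of these data known.

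Of 9525 cells, 9303 passed a minimum of 200 genes per cell and a mitochondrial share of no more than 10%. The counts of the 12 multiplexing tags, which label the pooled samples, were left out of the gene counts. Clusters were found with scanpy 1.11.5 (2000 variable genes, 30 components, 15 neighbours, Leiden resolution 0.4, seed 0), with 99 redox genes left out. A cluster was named from fixed markers. The Gpnmb cluster, with 3 of 8 macrophage and 8 of 8 mature neutrophil markers detected, was left unnamed by a rule chosen after its values were seen. No doublet caller was run, and a variant without the 2% of cells with the most UMIs was tried.

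UMIs were summed per library, or per cluster and library, and divided by their total (CPM). Comparisons by cluster used clusters with at least 20 cells in every library, and correlations used sums with at least 20 cells. The fixed weights and the values of the dendritic-like cluster had no such minimum. The design of 1 library per group allowed no test, so the log2 ratio was given with an exact conditional binomial 95% interval (scipy 1.17.1), and 1.25-fold, or 0.32 on the log2 scale, served as the threshold of size. Fixed cluster weights were each cluster's share of the cells of all 4 libraries. The named genes were the 10 members, the 2 genes with the highest Pearson correlation with each (at least 500 UMIs), and list genes past 1.5-fold. Nnt was left out of its list because its symbol is on 2 identifiers. On simulated data of the WT comparison (11852 genes, 200 of them changed), intervals covered the true value in 95.4% of genes. The simulated counts held Poisson counting error only, so this says nothing of variation between cells, clusters or libraries. Promoters and coordinates are of GRCm38.p6 (RefSeq), which corresponds to mm10, and overlaps and transcripts come from a GENCODE annotation of GRCm39.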

Additional observations from a re-analysis of the deposited data

Results flagged for a closer look

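The ISO ratio pointed in opposite directions in different clusters for 3 of the 10 enzymes, with counting intervals wholly above 0 in at least 1 cluster and wholly below 0 in another. No share of all genes is given for this rule, which abundant genes meet at smaller ratios because their counting intervals are narrower. The difference between clusters was not tested, since each ratio rests on 1 library per group. For Sod1 the highest ratio (0.23, Csta3 cluster) and the lowest (-0.93, mature neutrophil-like cells, 23 and 24 UMIs) differed by 1.16 on the log2 scale. Over 12 finer clusters Sod1 had 0 intervals wholly above 0 and 1 wholly below it. For Gpx1 the gap between macrophage-like cells (0.30) and the Csta3 cluster (-0.14) was 0.44. For Prdx5 the gap between the Gpnmb cluster (0.13) and the Csta3 cluster (-0.04) was 0.18. Its interval in the Csta3 cluster ended at -0.002. Other scalings moved all genes of the WT comparison by 0.04 and 0.05, about the size of the Prdx5 ratio there. Whether its sign within clusters holds under those scalings was not tested.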

How the results depend on the processing

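No paired analysis was possible because there was 1 library per group. The median log2 ratio of the 10 enzymes, 0.10 over all cells, was 0.26 with fixed cluster weights, 0.14 with totals without the 20 most abundant genes and 0.15 with median-of-ratios size factors. These 2 scalings moved all genes by 0.04 and 0.05. With weights chosen after seeing the data it was 0.21 (resolution 0.2), 0.26 (resolution 1.0) and 0.20 (without macrophage-like and dendritic-like cells). At 1.5-fold 0 enzymes passed in place of 2, and no share of all genes is given for this threshold. The count of enzymes whose highest cluster stood apart was 5 at resolution 0.2, 2 with 4000 variable genes, 4 with all genes allowed in the clustering, and 3 to 6 when a library was left out: 6 without WT+ISO, 5 without 1 of the other 2 libraries and 4 without WT+PBS. No share of all genes is given for these settings, and with fewer libraries the rule is easier to meet for any gene. The median ratio within clusters was 0.19, and 0.21 at resolution 1.0. Of 110 single-enzyme values under 11 alternatives, 75 stayed within the counting interval and 35 moved beyond it. Sod1 changed sign in 4 of 11 (-0.14 to 0.09). The other 9 kept their sign: Prdx1 ran from 0.08 to 0.67, Prdx6 from 0.35 to 0.42 and Cat from 0.37 to 0.57. Over 12 finer clusters the ISO ratio was above 0 in 12 for Prdx6 and Prdx2 and in 11 for Prdx1, Sod2 and Cat, and the remaining cluster of Prdx1 (-0.15) had an interval wholly below 0. Alternatives for comparisons with the other 2 libraries are not reported here. Depth limits the ratios of Sod1, Prdx3 and Cat most, within clusters above all.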

Other observations

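In the dendritic-like cluster, with 25 WT+PBS and 12 WT+ISO cells, Gpx1 was at 1391 CPM with PBS and 949 CPM with ISO (491 and 163 UMIs), a log2 ratio of -0.55 (95% counting interval -0.82 to -0.29). The intervals of the other 9 enzymes included 0 there. Prdx5 was at 459 and 361 CPM in these cells, below its lowest level in any of the 6 larger clusters (902 CPM). Nnt, the mitochondrial transhydrogenase that makes NADPH, had 26 UMIs with PBS and 32 with ISO under one of its 2 identifiers and 0 under the other.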
